A study of Mus musculus with 14 samples.

Results

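The cytosolic ribosomal protein genes encode the protein components of the ribosomes that translate nuclear messages. They were taken as every protein-coding row whose symbol begins with Rpl or Rps followed by a number, together with Rplp0, Rplp1, Rplp2 and Rpsa, leaving out the 10 protein-coding S6 kinase genes named Rps6k and the gene Rps19bp1. This gave 86 of 56748 genes, 52 with large subunit names and 34 with small subunit names. Of the 86, 83 had an FPKM (fragments per kilobase of gene, scaled to depth) of at least 0.5 in at least 3 libraries and were tested. The 3 that were not tested are Rpl10l, Rpl3l and Rps23rg1.

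The libraries hold ovary RNA of female C57BL/6J mice of WT genotype, either exposed to dextran sulfate sodium (DSS), a polymer that inflames the mouse colon, or kept as controls. The groups were DSS at day 89 (4 libraries), control at day 89 (3), DSS at day 7 (4) and control at day 7 (3). The series text places the first collection at the close of modelling and the second after 89 days without further treatment, and ages are not stated in the labels. Libraries are called here by the number in their label, such as R38. The labels do not say whether each library is 1 animal, and the spread behind every p-value is that between libraries, which may be partly technical. The labels give no date or batch, and time, age and any batch shared by a time point cannot be told apart.

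Each ribosome joins a small subunit, which reads the message, to a large subunit, which forms peptide bonds. The ribosomal proteins are made in balanced amounts, and their messages are among the most abundant in growing cells. Most of these messages begin with a run of pyrimidines, the 5′ terminal oligopyrimidine (TOP) tract, through which mTORC1 signalling controls their translation and stability. In the ovary, ribosome supply is known to be heavy in growing oocytes and in proliferating granulosa cells.

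Because most members moved together with time, their annotated starts were compared. RefSeq (GRCm38.p6) start windows of 30 bases, 15 on each side of the start, were found for 66 of the 86 members. On the sense strand, a run of at least 8 bases that are each C or T occurred in 28 of the 66 members (42.4%), against 13.9% of all 27025 genes with a window. The letters CTTT, which can lie inside such a run, occurred in 24 of the 66 members (36.4%), against 13.8% of all genes. A match in these windows is a description of letters and not of a functional start. The windows of 4 genes with large falls over time in both arms and of 2 genes that passed the test in neither arm are shown to let the runs be compared, with the longest run of C or T in capitals.
Rpl38 (chr11:114668565-114668594, plus strand): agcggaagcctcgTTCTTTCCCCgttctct
Rps24 (chr14:24490663-24490692, plus strand): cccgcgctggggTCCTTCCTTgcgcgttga
Rpl37a (chr1:72711245-72711274, plus strand): TTCCgctcgccggtctaaaaccgcgcatgc
Rpl36a (chrX:134585639-134585668, plus strand): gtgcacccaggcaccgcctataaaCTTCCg
Rpl15 (chr14:18270972-18271001, minus strand): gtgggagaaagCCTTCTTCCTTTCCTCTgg
Rpl31 (chr1:39367836-39367865, plus strand): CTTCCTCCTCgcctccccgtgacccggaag
Among these 6, the longest run was 17 bases in Rpl15, which was called in neither arm, and 4 bases in Rpl37a, which was called in both. Rpl31, also called in neither arm, fell in control ovaries by as much as the member median, with a wide error. The 6 genes were picked from the 66, a run may lie anywhere in the 30 bases, and the relation of run length to change was not tested.

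As a set, the members were abundant. In the mean of the 4 group means, 74 of the 86 exceeded 100 FPKM, and 45 of the 100 highest genes of the whole table were members. Rplp1, a stalk protein of the large subunit that helps to recruit elongation factors, stood first. Its FPKM was 1841 ± 284 in DSS and 1541 ± 70.0 in control libraries at day 89, and 4432 ± 1893 in DSS and 5691 ± 950.0 in control libraries at day 7 (SD, n = 4 for DSS and 3 for control). Rps3a1, a small subunit protein, came next with 1098 ± 88.7 FPKM in DSS and 1361 ± 351 FPKM in control libraries at day 89, against 2368 ± 157 FPKM in DSS and 3632 ± 1138 FPKM in control libraries at day 7. Rps15, Rplp0 and Rpl36 completed the first 5. In both DSS groups every library had more Rplp1 than any had Rps3a1, while in both control groups the ranges of these genes overlapped. Rps3a1 and Rps15 overlapped in 3 of the 4 groups and not in control libraries at day 89.

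By the mean of the 4 group means, the 5 lowest tested members began with Rpl7l1, close to Rpl13a and Rpl21 at day 89. Rpl7l1, a paralog of Rpl7, had 27.4 ± 2.15 FPKM in DSS and 26.6 ± 0.999 FPKM in control libraries at day 89, and 28.9 ± 3.997 in DSS and 29.8 ± 3.02 in control libraries at day 7. Rps10, Rpl24, Rpl39l and Rpl36al followed, with no library above 8.10 FPKM. Rps10 and Rpl24 encode core proteins of every ribosome, so a level of 0.989 to 4.94 FPKM for Rpl24 stood apart from the other core proteins of the same subunit. Of the reads assigned to Rps10 or to a gene named as its pseudogene, 94.8% lay on the pseudogenes, most of them on Rps10-ps2.

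Several members have such copies. The table holds 322 genes named as ribosomal protein pseudogenes, which together took 4.15% of the reads of members and pseudogenes (3.501 to 4.74% per library). The share at named pseudogenes was above 10% for 12 members. After Rps10 it was 58.6% for Rpl17, 47.6% for Rpl21, 39.1% for Rps12 and 17.7% for Rpl38. How reads that match several genes were assigned is not stated in the labels, so the levels of these members, and of Rps27 beside Rps27rt, are uncertain.

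The members are short. Their median coding length in the GENCODE M21 annotation of GRCm38 was 453 bases and their median messenger length 703 bases. The deposited gene length, which divides the reads in FPKM, had a median of 1770 bases over the 83 tested members and ran from 374 to 6270 bases over all 86, against a median of 4295 bases over 13800 tested protein-coding genes. The deposited length was in the median 2.36 times the messenger length. Across the 83 tested members, the mean FPKM had a Spearman correlation of -0.38 with the deposited length and of 0.32 with the coding length, so the order of levels depends on the length used. Rpsa, the laminin receptor and small subunit protein, held the most reads of all members but ranked 13 by FPKM.

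The share of all reads at the members was 4.29, 5.46, 4.57 and 4.76% in DSS and 3.98, 3.83 and 4.16% in control libraries at day 89. At day 7 it was 10.28, 8.0003, 8.07 and 8.74% in DSS and 10.004, 8.38 and 10.02% in control libraries. Every day 89 library lay below every day 7 library. At day 89 every DSS library lay above every control library, while at day 7 the groups overlapped. The widest 95% Wilson interval of these shares, which covers counting error only, was 10.0074 to 10.0376% in control 53.

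**Figure D1:**
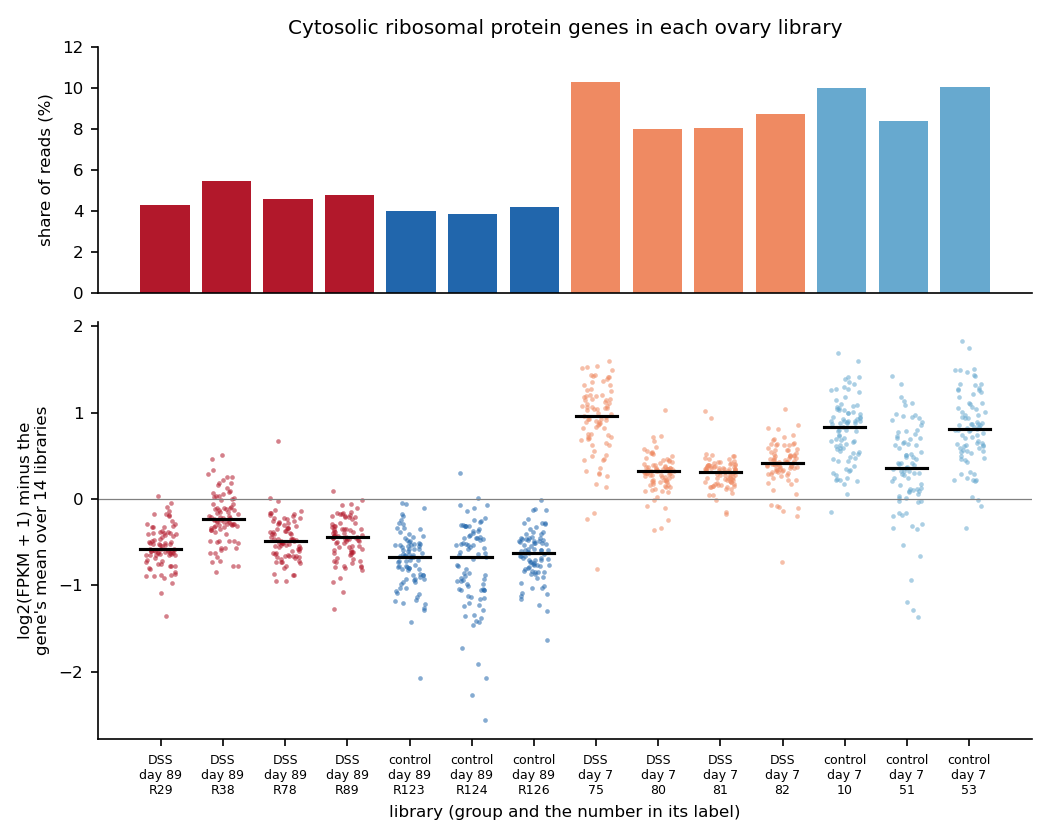
Upper panel: share of each library's reads at the 86 genes, in percent. Lower panel: each point is 1 of 83 tested genes, as its log2(FPKM + 1) minus its mean over the 14 libraries, with a bar at the median. All day 89 medians lie between -0.68 and -0.23 and all day 7 medians between 0.32 and 0.96, and DSS 75, control 10 and control 53 are the highest 3.

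The 3 libraries highest in both panels of the plot by library were also the 3 with the largest share of mitochondrial reads. That share was 14.2% in DSS 75, 9.96% in control 10 and 12.2% in control 53, against 0.479 to 4.04% in the other 11 libraries. Depth was similar throughout, at 15256018 to 18505144 reads recovered per library. The total implied by the authors' FPKM scaling was 0.852 to 1.07 times the recovered total, lowest in DSS 75. The part of these properties in the members' levels was not tested beyond the values given beside each result.

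With time, the members fell in both arms. In DSS ovaries 64 of the 83 tested members were lower at day 89 than at day 7 and none was higher (limma on log2(FPKM + 1), Benjamini-Hochberg adjusted p under 0.05 over 18006 genes), against 10.7% of all tested genes called lower. In control ovaries 74 of 83 were lower and none was higher, against 15.7% of all tested genes. The median log2 change of the members was -0.94 in DSS and -1.31 in control ovaries, that is 1.91 and 2.48 times lower on the FPKM + 1 scale. Over all tested genes the median was 0.00 in both arms. With quantile normalization, which gives every library the same distribution of values, the counts were 33 lower in DSS and 43 lower in control ovaries, with medians of -0.42 and -0.65, and none higher in either, against 10.8% and 14.95% of all tested genes called lower.

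Both subunits took part. Of the large subunit members, 39 of 50 in DSS and 45 of 50 in control ovaries were lower, with medians of -0.93 and -1.28. Of the small subunit members, 25 of 33 in DSS and 29 of 33 in control ovaries were lower, with medians of -0.95 and -1.33. In 73 of 83 members every DSS library of day 89 lay below every DSS library of day 7, against 12.7% of all tested genes. In control ovaries this held for 76 of 83 members, against 22.2% of all tested genes. The same 63 genes were called in both arms, 11 in control ovaries alone, 1 (Rps4x) in DSS ovaries alone and 8 in neither.

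**Figure D2:**
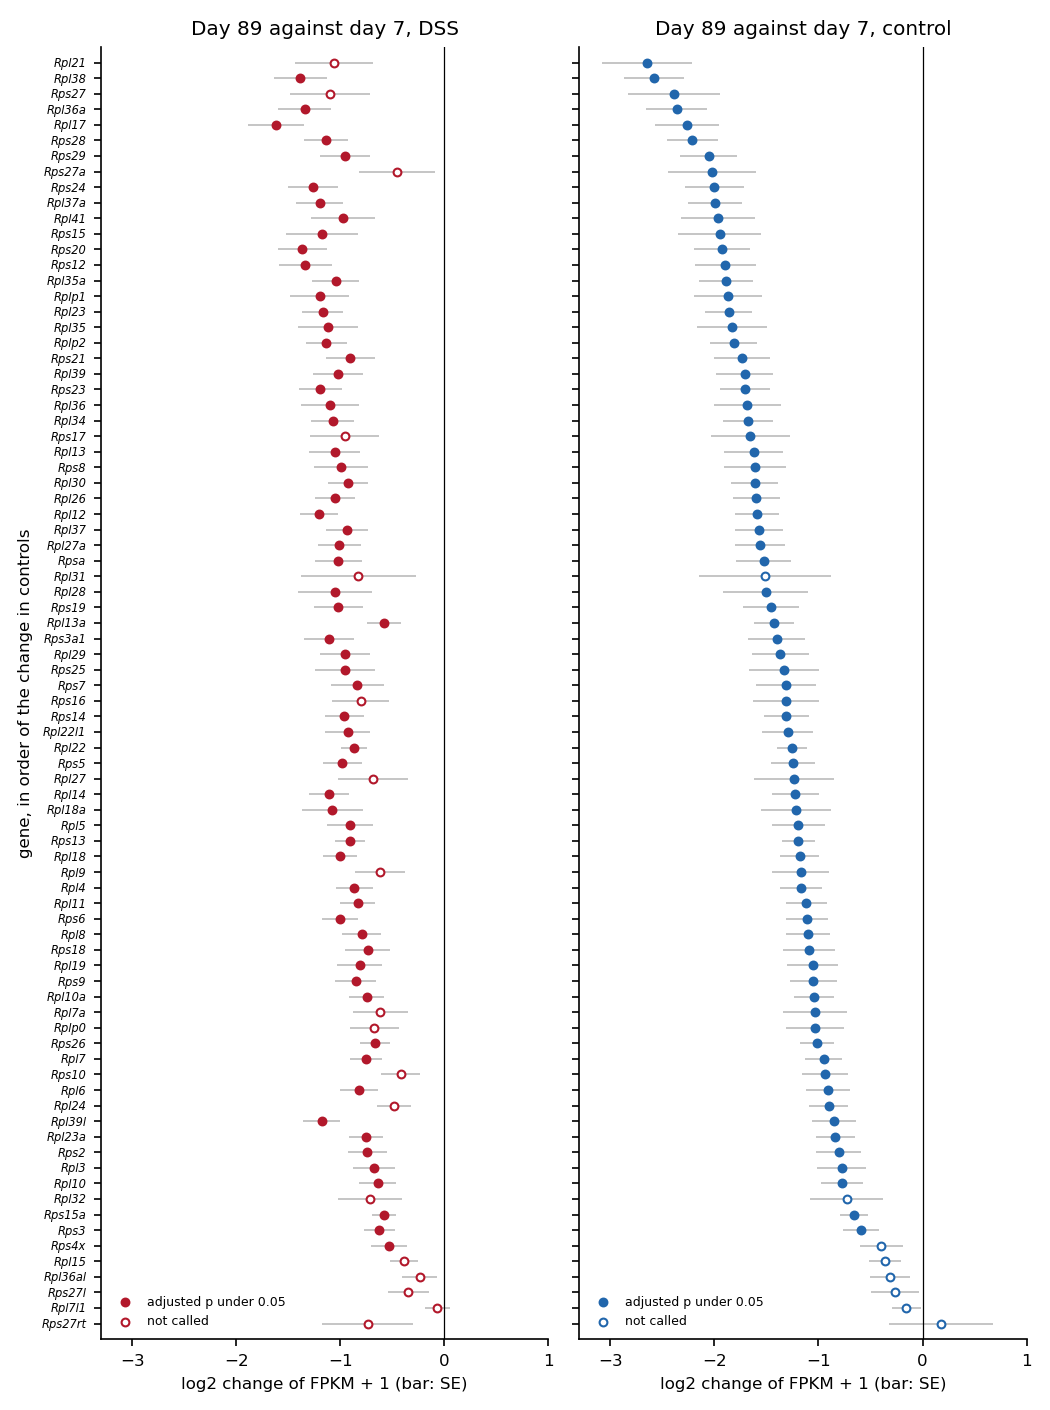
Log2 change of FPKM + 1 at day 89 against day 7 for 82 of the 83 tested genes, in DSS (left) and control ovaries (right), with SE. Filled points have a limma adjusted p under 0.05 and open points do not. All points in DSS ovaries lie below 0, and in control ovaries all but Rps27rt do.

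The stalk of the large subunit binds the factors that drive elongation. Rplp1 had 1689, 2267, 1710 and 1698 FPKM at day 89 and 7252, 3180, 3644 and 3653 FPKM at day 7 in DSS ovaries. In control ovaries it had 1620, 1486 and 1517 FPKM at day 89 and 6034, 4617 and 6421 FPKM at day 7. No library of day 89 reached the lowest of day 7 in either arm. The log2 change was -1.20 ± 0.28 in DSS (SE, limma adjusted p = 0.0118) and -1.87 ± 0.33 in control ovaries (adjusted p = 0.0014), and in DSS ovaries the call was lost with no filter on low values (-1.20) and with quantile normalization (-0.56). Rplp2, its partner in the stalk, changed by -1.13 ± 0.20 in DSS and by -1.82 ± 0.23 in control ovaries, and both passed the test. Rplp0, the protein that anchors the stalk, passed in control ovaries at -1.03 ± 0.28 and not in DSS ovaries, where the change was -0.67 ± 0.24 (limma adjusted p = 0.0586).

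Among large subunit proteins, Rpl38, a surface protein whose loss alters the axial skeleton in mice, was among the 2 largest falls in each arm. It had 146, 224, 150 and 142 FPKM at day 89 and 664, 343, 360 and 397 FPKM at day 7 in DSS ovaries. In control ovaries it had 102, 150 and 112 FPKM at day 89 and 707, 542 and 985 FPKM at day 7. The groups did not overlap. The log2 change was -1.38 ± 0.25 in DSS and -2.58 ± 0.29 in control ovaries (limma adjusted p = 0.00371 and 0.000257). Rpl36a changed by -1.34 ± 0.25 in DSS and by -2.36 ± 0.29 in control ovaries, and Rpl37a by -1.20 ± 0.23 and by -1.99 ± 0.26. Rpl17 changed by -1.62 ± 0.27 in DSS ovaries, the largest fall there, and by -2.27 ± 0.31 in control ovaries, and Rpl21 changed most in control ovaries, by -2.64 ± 0.43. Both of these last have many reads at named pseudogenes. Rpl12, at the base of the stalk, fell by 1.20 in DSS ovaries on the log2 scale. Rpl5 and Rpl11, which with 5S RNA bind the p53 regulator MDM2, are given for this role with their values known, and fell by 0.91 and 0.83 in DSS ovaries and by 1.19 and 1.12 in control ovaries.

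Among small subunit proteins, Rps28 had 94.1, 116, 96.1 and 98.6 FPKM at day 89 and 301, 184, 194 and 228 FPKM at day 7 in DSS ovaries. In control ovaries it had 62.4, 60.7 and 67.4 FPKM at day 89 and 349, 193 and 392 FPKM at day 7. The libraries of each time were apart in both arms, and the log2 change in control ovaries was -2.21 ± 0.24. Rps24 and Rps29 fell by 2.0003 and 2.06 in control ovaries, and Rps20, Rps12, Rps24 and Rps23 fell by 1.36, 1.34, 1.26 and 1.19 in DSS ovaries. Rps19, which like Rps24 is mutated in human Diamond-Blackfan anaemia, and Rps6 are also given for their known roles with their values seen. Rps19 changed by -1.02 ± 0.24 in DSS and by -1.45 ± 0.27 in control ovaries, and Rps6, the classic substrate of the S6 kinases, by -1.005 ± 0.17 and -1.11 ± 0.20, all called. Rps27 fell by 2.39 in control ovaries and did not pass in DSS ovaries, at -1.10 ± 0.38 (limma adjusted p = 0.0551). Rps27a, which is made as a fusion with ubiquitin, fell by 2.02 in control ovaries and had a change of -0.46 ± 0.37 in DSS ovaries (limma adjusted p = 0.385). In Rps27a the control library R123 was low, at 64.8 FPKM against 221 and 220 FPKM in the other control libraries of day 89. At day 7 DSS 82 was low, at 165 FPKM against 336, 395 and 387 FPKM in the other DSS libraries. Without DSS 75, control 10 and control 53 the changes of Rps27 and Rps27a in control ovaries were -1.31 and -1.86 and not called, but day 7 then has control 51 alone, assumed to vary like the other groups. Control 51 differed from the other day 7 controls by -1.62 in Rps27 on the log2 scale.

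Among the 8 members called in neither arm were Rpl31, Rpl32, Rpl15, Rps27rt, Rps27l, Rpl7l1 and Rpl36al. Rpl7l1 had changes of -0.07 ± 0.12 in DSS and -0.15 ± 0.14 in control ovaries, and its libraries overlapped in DSS ovaries. Rpl15 had changes of -0.39 ± 0.13 and -0.36 ± 0.15, with no overlap between times. Rpl31 had a change of -1.51 ± 0.63 in control ovaries, as large as the member median but with a wide error. It was far lower in control 51 and control R124 than in the other control libraries. Rps27rt was the only member with a change above 0, at 0.18 ± 0.50 in control ovaries, and without control 51 it was -0.18.

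Some paralogs differed between times in their ratio to the parent gene. Rps27l, a p53-induced paralog of Rps27, stood to Rps27 at a mean FPKM ratio of 0.535 ± 0.116 in DSS and 0.956 ± 0.247 in control libraries at day 89, against 0.355 ± 0.179 in DSS and 0.244 ± 0.161 in control libraries at day 7 (SD, n = 4 for DSS and 3 for control). Rps27rt, a retrogene by name, stood to Rps27 at 1.20 ± 0.714 in DSS and 2.03 ± 0.442 in control libraries at day 89, against 0.916 ± 0.524 in DSS and 0.339 ± 0.0769 in control libraries at day 7. In control ovaries the ranges of both ratios did not overlap between times. The ratio of Rpl7l1 to Rpl7 was 0.0801 ± 0.0103 in DSS and 0.0855 ± 0.00562 in control libraries at day 89, against 0.0506 ± 0.0110 in DSS and 0.0497 ± 0.00756 in control libraries at day 7, with no overlap between times in either arm.

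Rpl22l1 and Rpl22, which bind RNA and are known to regulate each other, fell side by side. Their ratio was 0.343 ± 0.105 in DSS and 0.419 ± 0.0492 in control libraries at day 89, against 0.353 ± 0.0625 in DSS and 0.439 ± 0.0922 in control libraries at day 7. Rpl22l1 changed by -0.93 ± 0.21 in DSS and by -1.30 ± 0.25 in control ovaries, and Rpl22 by -0.87 ± 0.13 and by -1.26 ± 0.15, all called. Rpl39l, which in mice is best known from the testis, was far below Rpl39. It had 0.687, 0.761, 0.368 and 0.885 FPKM at day 89 and 3.57, 2.52, 3.31 and 1.90 FPKM at day 7 in DSS ovaries, and 0.460, 0.0679 and 0.294 FPKM at day 89 and 1.602, 0.846 and 1.47 FPKM at day 7 in control ovaries. It fell by 1.18 in DSS and by 0.85 in control ovaries, and times did not overlap. Rpl36al stood to Rpl36a at 0.00522 ± 0.00133 in DSS and 0.00974 ± 0.00508 in control libraries at day 89, against 0.00304 ± 0.000876 in DSS and 0.00320 ± 0.00202 in control libraries at day 7, and it was not called over time.

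The 3 untested members stayed near 0. Rpl10l, the testis copy of the X-linked Rpl10, reached at most 0.671 FPKM, in DSS 81. Rps23rg1 reached 0.236 FPKM in control R123, and Rpl3l, known from heart and skeletal muscle, reached 0.210 FPKM in DSS R38 and was listed at 0 in 9 of 14 libraries.

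Gene length ran with the change over time across the whole table, so the members were set beside other protein-coding genes of like length. Of length up to 1 kb, 13 members had a median log2 change of -0.96 in DSS and -1.40 in control ovaries. For 408 other genes it was -0.43 and -0.53, and for the 71 of those above 50 FPKM -0.58 and -0.96. The cut at 50 FPKM was set on the mean of log2(FPKM + 1) over all libraries. Between 1 and 2 kb, 34 members had medians of -0.96 in DSS and -1.44 in control ovaries, against -0.36 and -0.60 for 215 other genes above 50 FPKM. Between 2 and 4 kb, 30 members had medians of -0.87 and -1.22, against -0.05 and -0.06 for 319 such genes. Between 4 and 8 kb, 6 members had medians of -1.01 and -1.32, against 0.10 and 0.16 for 141 such genes. The members thus lay below other genes in each class, by least in the shortest class. With the trend on length removed, 58 members in DSS and 71 in control ovaries were called lower and none higher, against 8.87% and 13.8% of all tested genes called lower.

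**Figure D3:**
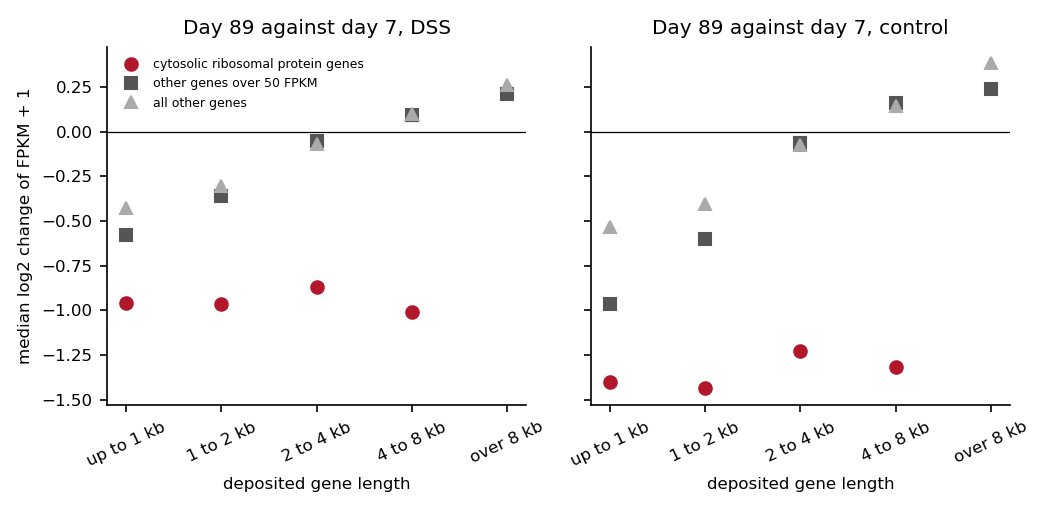
Median log2 change at day 89 against day 7 by class of deposited gene length, in DSS (left) and control ovaries (right). Circles are the members, squares other protein-coding genes above 50 FPKM and triangles all other protein-coding genes. The members stay between -1.44 and -0.87 in every class they fill, while other genes climb with length, and no member exceeds 8 kb.

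Within the members, the deposited length had a Spearman correlation of 0.11 with the change in DSS and of 0.12 with that in control ovaries (83 genes). Over all 18006 tested genes these were 0.32 and 0.37. With the coding length, the members' correlations were 0.34 in DSS and 0.47 in control ovaries, so members with shorter coding sequences had the lower changes. Genes measured in the same libraries are not independent, and no test was made.

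Genes that share the start tract or the task of translation were looked at as lists. Of all tested genes, 10.7% in DSS and 15.7% in control ovaries were called lower. Of 22 further TOP and companion genes, 15 in DSS and 14 in control ovaries were lower and none higher, with a median of -0.68 in both. Fau, which encodes another small subunit protein as a fusion, fell by 1.06 in DSS and by 1.78 in control ovaries, and the growth protein gene Tpt1 by 1.10 and by 1.51. Eef1a1, the main elongation factor, had changes of -0.34 ± 0.23 and -0.20 ± 0.26 and was not called. Of 7 non-coding hosts of small nucleolar RNAs with TOP starts, 6 were lower in each arm, among them Gas5 at -0.999 ± 0.21 in DSS and -1.77 ± 0.24 in control ovaries and Snhg8 at -1.24 ± 0.24 and -2.21 ± 0.28.

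Genes whose products build ribosomes were called in both directions. Of all tested genes, 10.7% in DSS and 15.7% in control ovaries were called lower, and 10.7% and 16.1% higher. The counts of biogenesis and proteasome genes called lower in control ovaries are near that share of all genes. Of 55 biogenesis genes, 11 in DSS and 10 in control ovaries were lower, and 1 and 4 were higher, with medians of -0.19 and -0.09. Nop56, of the box C/D particles, fell by 0.83 in DSS and by 1.08 in control ovaries, and Tsr1, a factor of small subunit maturation, rose by 1.30 and by 2.05. Of 14 genes of mTORC1 and TOP regulation, none was lower, and 1 in DSS and 2 in control ovaries were higher. These counts of higher genes are near the shares of all genes. Mtor rose by 1.03 in DSS and by 1.31 in control ovaries. Of 77 mitochondrial ribosomal protein genes, 27 in DSS and 43 in control ovaries were lower, and 1 and 4 were higher, with medians of -0.36 and -0.58. Of 81 nuclear genes of oxidative phosphorylation, 15 and 43 were lower and 3 and 6 higher, with medians of -0.33 and -0.67. Of 38 proteasome genes, 1 and 6 were lower and 2 and 8 higher, with medians of -0.09 in both. The 114 tested pseudogenes of ribosomal proteins had 55 lower calls in DSS and 69 in control ovaries, with medians of -0.73 and -0.93.

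The libraries at the 2 times also differed in markers of ovarian and immune cells. All 8 oocyte markers had changes below 0 in both arms, with 8 called lower in DSS and 3 in control ovaries. Their summed FPKM was 55.8 to 164.6 in DSS and 32.0 to 131 in control libraries at day 89, and 283 to 451 in DSS and 134 to 253 in control libraries at day 7. Of 6 theca and luteal markers, 4 were higher at day 89 in DSS ovaries and none was called in control ovaries. Their summed FPKM was 3500 to 5245 in DSS and 4312 to 4674 in control libraries at day 89, and 1840 to 2987 in DSS and 2360 to 3427 in control libraries at day 7. Of 7 granulosa markers, 6 had changes above 0 in each arm, with medians of 0.41 in DSS and 0.07 in control ovaries. Among these markers 1 was called, lower in control ovaries. Of all tested genes, 10.7% in DSS and 15.7% in control ovaries were called lower, and 10.7% and 16.1% higher. Of 7 macrophage markers, 3 in DSS and 4 in control ovaries were higher and none lower, with 6 above 0 in each arm. All 3 tested neutrophil markers were lower in DSS ovaries, and none was called in control ovaries. None of 10 retina markers exceeded 0.539 FPKM, although the labels' extraction text names retinas as the tissue removed. In whole ovaries, fewer cells of a type and less RNA per cell cannot be told apart, and the part of cell makeup in the members' fall was not tested.

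DSS against control gave no called member at either time. At day 7, 0 of 83 passed, against 0.0333% of all tested genes, and 17 (20.48%) had an unadjusted limma p under 0.05, 14 lower and 3 higher, against 16.0% of all tested genes. At day 89, 0 of 83 passed, against 0.00555% of all tested genes, and 11 (13.3%) had an unadjusted p under 0.05, all higher. Of all tested genes 4.58% had such a p, 426 higher and 398 lower. limma with voom on recovered reads also called 0 at each time. The median log2 change was -0.15 at day 7, with 62 of 83 below 0 (0.03 with quantile normalization), and 0.24 at day 89, with 70 of 83 above 0.

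At day 7 the smallest p belonged to Rpl13a, a large subunit protein also known as part of a translational inhibitor complex in human macrophages. It had 58.0, 44.9, 37.3 and 38.3 FPKM in DSS and 79.8, 107 and 75.9 FPKM in control libraries. The groups did not overlap, and the log2 change of -0.96 ± 0.18 was not called (limma adjusted p = 0.0777). Rplp2, Rpl37a, Rpl38 and Rpl22l1 followed with changes of -0.72, -0.71, -0.76 and -0.64, none called. In the other direction Rpl39l had a change of 0.72 ± 0.19 (limma adjusted p = 0.126), with each DSS library above each control library. Rps27rt had 580, 418, 255 and 179 FPKM in DSS and 185, 88.8 and 193 FPKM in control libraries, a change of 1.14 ± 0.47 that was not called, with DSS 82 inside the control range. Rpl32 and Rps27l had changes of 0.74 and 0.43, not called. In 4 of 83 members every DSS library lay below every control library, against 5.87% of all tested genes.

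The day 7 result moved with the libraries used. Without DSS 75, the library with the highest mitochondrial share, 10 members were called lower and none higher. Of all tested genes, 3.32% were called lower and 3.47% higher. The 10 members were Rpl41, Rpl13a, Rpl38, Rplp2, Rpl37a, Rps21, Rps20, Rps24, Rpl36a and Rpl23. Without DSS 75, control 10 and control 53 together, 3 were called, Rpl13a and Rplp2 lower and Rpl32 higher, against 5.08% of all tested genes called in either direction. Control 51 is then the only control library of day 7, assumed to vary like the libraries of the other groups, and it departs from the left-out controls by -1.31 in Rpl32 and 0.46 in Rpl13a on the log2 scale. Among those 3 libraries the median of the members was 0.15 (1 DSS against 2 control libraries), and among the other 4 day 7 libraries 0.02 (3 DSS against 1 control library). Rpl13a had differences of -0.42 and -1.40 in these strata. With sample quality weights 50 members were lower and 2 higher, against 20.1% of all tested genes called lower and 19.5% higher. These weights were 5.40 for control 53 against 0.432 for control 10 and 0.280 for control 51, and 0.213 for DSS 75. The day 7 control mean then rests mostly on control 53, a library of high mitochondrial share.

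At day 89 the 5 genes with the smallest p, in the direction higher in DSS, were Rps28, Rps27, Rpl27, Rps29 and Rps16. Rps27, a small subunit protein, had 180, 236, 152 and 195 FPKM in DSS and 98.2, 55.6 and 105 FPKM in control libraries, a change of 1.17 ± 0.41 (limma adjusted p = 0.924). Rps28 had a change of 0.66 ± 0.23, Rpl27 of 0.97 ± 0.36, Rps29 of 0.67 ± 0.26 and Rps16 of 0.69 ± 0.30. In each of these 5 the DSS libraries lay above the control libraries without overlap. Over the members this held for 34 of 83, against 4.04% of all tested genes, and in none did the DSS libraries lie below. The mitochondrial share split the same libraries, at 2.37 to 3.66% in DSS and 0.479 to 2.25% in control libraries at day 89, and its part in the members' values was not tested. In the direction lower in DSS, Rpl22l1 had a change of -0.28 ± 0.23, Rps3a1 of -0.28 ± 0.26, Rps3 of -0.14 ± 0.16, Rpl36al of -0.15 ± 0.18 and Rpl13a of -0.11 ± 0.18, all with overlapping libraries.

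**Figure D4:**
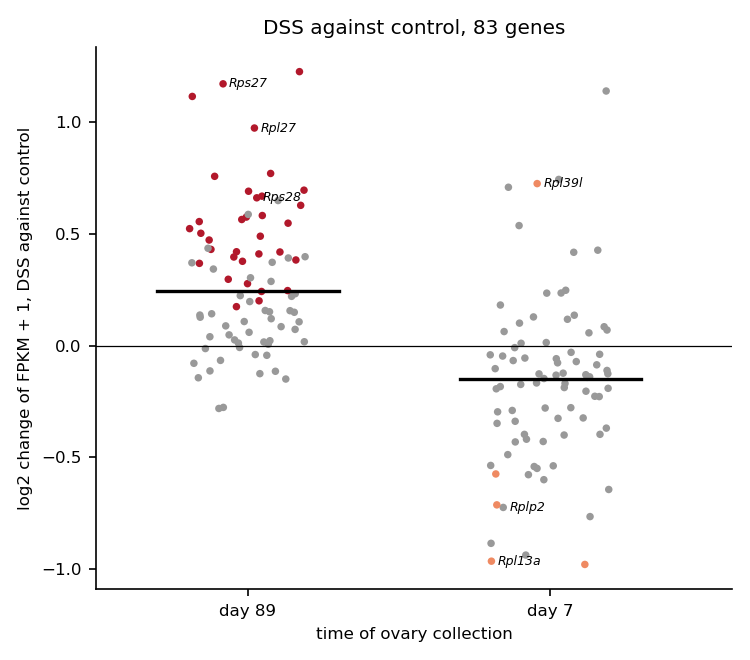
Log2 change of FPKM + 1 in DSS against control ovaries at day 89 (left) and day 7 (right), 1 point for each of 83 tested genes, with a bar at the median. Coloured points have no overlap between DSS and control libraries, 34 at day 89 and 5 at day 7, and none passed the test. The median is 0.24 at day 89 and -0.15 at day 7.

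Other short genes lay on the same side at day 89. Of length up to 1 kb, 13 members had a median log2 change of 0.40 in DSS against control, 408 other genes 0.16 and the 71 of those above 50 FPKM 0.26. Between 1 and 2 kb, 34 members had 0.37 and 215 other genes above 50 FPKM 0.06. Between 2 and 4 kb, 30 members had 0.14 and 319 other genes above 50 FPKM -0.03. Between 4 and 8 kb, 6 members had 0.08 and 141 such genes -0.14. Most immune cell and erythrocyte markers also ran higher in DSS libraries at day 89. All 7 macrophage, all 5 tested erythrocyte, all 5 tested B and plasma cell and all 4 tested T cell markers were above 0. None of these was called. The B and plasma cell markers summed to 19.8 to 56.2 FPKM in DSS and 8.30 to 9.73 FPKM in control libraries, without overlap. The summed FPKM of the macrophage markers was 517.5 to 1017 in DSS and 336 to 628 in control libraries, and that of the erythrocyte markers 44.4 to 656 in DSS and 42.75 to 45.6 in control libraries. Of the tested neutrophil markers, 2 lay above 0 and 1 below at day 89. At day 7 all 7 macrophage, all 5 tested erythrocyte and all 5 tested B and plasma cell markers were likewise above 0, none called. The same held for all 4 tested T cell markers. The member median at day 7 was -0.15. At day 7 the neutrophil markers summed to 11.4 to 128 FPKM in DSS and 0.468 to 1.07 FPKM in control libraries. The part of these markers in the members' values was not tested.

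The DSS effect at day 89 minus that at day 7, which is also the change over time in DSS minus that in control ovaries, was called for 0 of 83 members, against 0% of all tested genes. The median was 0.42, with 77 of 83 above 0, and 14 members had an unadjusted limma p under 0.05, all above 0. Of all 18006 tested genes 8.45% had such a p, 786 above 0 and 735 below. Rpl13a, Rps28, Rpl38, Rps29 and Rps27a had the smallest p, with differences of 0.85 ± 0.25, 1.08 ± 0.32, 1.20 ± 0.38, 1.10 ± 0.37 and 1.56 ± 0.56 (smallest limma adjusted p = 0.487). In Rps27a, DSS 82 and control R123 were the lowest of their groups, at 165 and 64.8 FPKM, and both raise the difference. Below 0 lay Rps27rt at -0.91 ± 0.66, Rpl39l at -0.33 ± 0.27, Rps4x at -0.14 ± 0.27, Rps27l at -0.08 ± 0.30, Rpl15 at -0.03 ± 0.20 and Rps3 at -0.03 ± 0.23, none called; that of Rpl39l was 0.10 with a pseudocount of 0.1. The smaller count of calls in DSS than in control ovaries over time is therefore not shown to be a difference between arms. With sample quality weights 44 members were called above 0, against 11.7% of all tested genes called above 0. These weights rest the day 7 control mean mostly on control 53.

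Within groups the members did not keep 1 fixed profile. Control 51 at day 7 and control R124 at day 89 departed from the other control libraries of their time in the same members. Over the 83 tested members these departures had a Spearman correlation of 0.73, against 0.37 over all 18006 tested genes, and no test was made. Both libraries had the lowest mitochondrial share of their group, 1.66% in control 51 and 0.479% in control R124. In control R124 3 members, and in control 51 13 members, lay more than 1 log2 unit below the other libraries. Of all tested genes, 3.02% in control R124 and 6.17% in control 51 lay beyond 1 log2 unit in either direction, so the count in control R124 is near that of all genes.

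Rpl31, a large subunit protein near the exit of the peptide tunnel, had 58.0 FPKM in control R124 against 229 and 226 FPKM in the other control libraries of day 89. At day 7 it had 134 FPKM in control 51 against 913 and 583 FPKM in the other control libraries. Rps3a1 ran the other way, with 1738 FPKM in control R124 against 1045 and 1299 FPKM, and 4899 FPKM in control 51 against 2695 and 3302 FPKM. Rps9 was likewise high in both, by 0.49 in control R124 and by 0.42 in control 51 on the log2 scale. In DSS libraries Rpl31 was never below 283 FPKM.

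**Figure D5:**
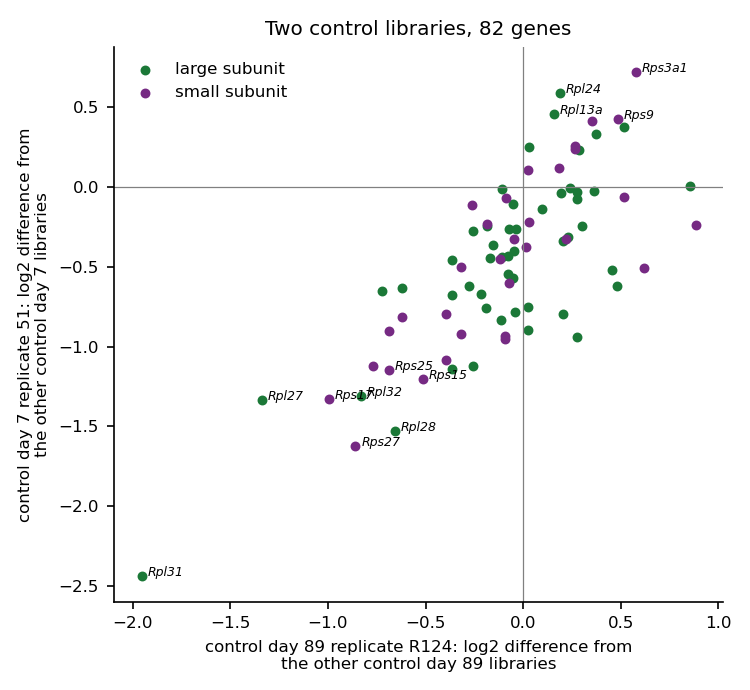
Each point is 1 of 82 tested genes, as the log2 difference of control R124 from the other day 89 control libraries (horizontal) and of control 51 from the other day 7 control libraries (vertical). Rpl31 (-1.96 and -2.44) is at the lower left, and Rps3a1 (0.58 and 0.72) is at the upper right.

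Without control 51 and control R124, 73 members in DSS and 76 in control ovaries were lower over time and none higher, against 12.02% and 14.1% of all tested genes called lower, and 0 were called for DSS against control at either time. The median in control ovaries was -1.59 without control 51 alone. The median in control ovaries without both was -1.40. These 2 libraries were singled out after their values were seen. In DSS ovaries R38 had the highest member median of its group, with a library difference of 0.32 on the log2 scale, and without it the day 89 median of DSS against control was 0.18.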

How the data were processed

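The authors deposited FPKM values, 1 column per library, beside the length of every gene. The labels' protocols name a TruSeq RNA kit and total RNA as input. HISAT2 2.0.5 and the GRCm38 build are listed in the submitters' processing notes. The counting tool, its use of strand and its treatment of multi-mapping reads are not stated there. FPKM times length came in whole steps (within 0.01, below 300 steps, 100% of such values), so reads per gene were recovered, 15256018 to 18505144 per library.

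log2(FPKM + 1) was fitted with limma 3.58.1 (R 4.3.3, limma-trend), 1 mean per group over 14 libraries, Benjamini-Hochberg adjusted over 18006 genes with a threshold of 0.05. This scale understates folds of low genes. The fit was tested on simulated data. Members, lists, tests and the naming rule were chosen with earlier results of these data known. The rule names, per comparison and direction, up to 10 called members of largest change or, where fewer than 5 passed, the 5 with the smallest p, besides stalk proteins, paralogs and the 5 highest and 5 lowest members. Scalings, filters, pseudocounts, voom, sample weights and left-out libraries were tried as alternatives. 1 member is counted but not reported by itself here.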

Additional observations from a re-analysis of the deposited data

Results flagged for a closer look

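In groups of 4 libraries, a library was looked at again when its gap to the nearest other exceeded the limit of Dixon's test; chance gives about 1 in 20, and 16 of 68 sets of values were found. At day 89, DSS R38 was the highest of its group for Rpl36 (998 FPKM), Rplp1 (2267 FPKM), Rpl27 (331 FPKM), Rpl12 (240.1 FPKM), Rpl38 (224 FPKM), Rpl36a (145 FPKM), Rps12 (125 FPKM) and Rpl13a (36.2 FPKM). DSS R29 was the lowest for Rpl21 (14.5 FPKM). At day 7, DSS 75 was the highest for Rplp1 (7252 FPKM), Rps15 (4288 FPKM), Rps23 (1370.1 FPKM), Rpl38 (664 FPKM), Rps20 (538 FPKM), Rpl36a (456 FPKM) and Rps24 (371 FPKM). DSS 75 and R38 had the highest mitochondrial shares of their groups, 14.2 and 3.66%, and the part of this was not tested. The sets share libraries and are not independent.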

How the results depend on the processing

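No paired analysis was possible because the groups share no replicate numbers. The members' fall over time kept its direction under every setting tried, with no member called higher. With quantile normalization the counts were 33 in DSS and 43 in control ovaries, and the medians -0.42 and -0.65. Without DSS 75, control 10 and control 53, which leaves control 51 as the only control library of day 7, the control median was -1.07, and -1.01 when those 3 had their own term in the model. With sample quality weights DSS against control at day 7 gave 52 calls and a median of -0.46, and the difference of the DSS effect 44 calls; without the 3 libraries of high mitochondrial share day 7 gave 3 calls, again with 1 control library. The sample quality weights rested the day 7 control mean mostly on control 53, at 5.40 against 0.432 for control 10 and 0.280 for control 51. The causes were not tested.

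With 1 library left out in turn, calls ranged from 0 to 10 at day 7, were 0 at day 89 and for the difference, and ranged from 49 to 72 in DSS and from 68 to 76 in control ovaries over time. Medians ranged from -0.34 to -0.06 at day 7, from 0.18 to 0.29 at day 89, from -1.02 to -0.78 in DSS and from -1.59 to -1.21 in control ovaries over time, and from 0.33 to 0.64 for the difference.

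A few members not called changed sign. With 1 library left out, Rpl36al at day 89 ranged from -0.29 to 0.0231, and it was 0.0231 without control 51 and control R124. Rps27rt in control ovaries over time ranged from -0.18 to 0.37, and was -0.0527 without the pair and -0.14 with weights. For the difference, Rpl39l was 0.10 with a pseudocount of 0.1 and 0.33 with voom, Rps27l ranged from -0.25 to 0.0507 and was 0.0415 with the term for high mitochondrial share, and Rpl15 ranged from -0.099 to 0.0179. Leaving out or modelling control 51 and control R124 was chosen after seeing the data. With 3 or 4 libraries a group, small differences were not detectable.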
